A study of Homo sapiens with 4 samples.

Results

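The transcripts described here are 8 genes of the epidermal growth factor (EGF) receptor system, taken by symbol from 26364 symbols in the count tables. They are the ligand genes AREG, EREG, HBEGF and TGFA, the receptor genes EGFR, ERBB2 and ERBB3, and ERRFI1, which encodes an intracellular inhibitor of these receptors. All 8 were present, and all 8 passed a filter of 1 CPM or more in at least 2 libraries, where CPM is the usual scaling of counts by library size. All RNA came from the established human lung cancer line NCI-H460, of the non-small cell type. Cells were gamma-irradiated with 4 Gy or left at 0 Gy, and then spent 48 h in 2 uM 3-deazaneplanocin A (DZNep), an inhibitor of S-adenosylhomocysteine hydrolase that lowers cellular methylation reactions, or in its solvent DMSO. Each of the 4 groups, DMSO and DZNep at 0 and at 4 Gy, was 1 library from this line, so no group has a replicate. Nothing shows the libraries to be independent cultures, and p-values measure only the spread between these 4 libraries, which may be technical.

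EGF-family ligands are made as membrane-anchored precursors and are cut free at the cell surface by ADAM proteases. AREG, EREG, HBEGF and TGFA all bind EGFR, and HBEGF and EREG also bind ERBB4. Binding lets the receptor pair with itself or with a relative. ERBB2 has no known ligand and acts as a partner, while ERBB3 has a weak kinase, binds neuregulins and couples strongly to PI3 kinase. Active receptors signal through a kinase cascade to ERK, and ERRFI1 (also called MIG6) is a feedback inhibitor whose transcription ERK signalling is known to raise.

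The 4 libraries held 112461380 to 136594350 counts. The epithelial keratins KRT8 (709 to 2048 CPM), KRT18 (633 to 2070 CPM) and KRT19 (146 to 247 CPM) were abundant, whereas the epithelial adhesion genes EPCAM and CDH1 stayed at or below 0.491 CPM. KRT8 and KRT18 rose with DZNep (log2 fold changes 1.35, SE 0.13, and 1.58, SE 0.13), as some of the genes below did, while KRT19 was at -0.27 (SE 0.16) and did not pass. Of 8 markers of blood, endothelium and fibroblasts, 3 were above the filter. They were CD68, COL1A1, which fell with DZNep (log2 fold change -0.54, SE 0.18), and PDGFRB (4.10 to 10.5 CPM). The other 5 (PTPRC, PECAM1, VWF, COL1A2 and DCN) lay between 0 and 0.554 CPM. Both endothelial markers had more counts with DZNep, PECAM1 with 1 and 4 in DMSO against 40 and 21 in DZNep at 0 and 4 Gy, and VWF with 1 and 0 against 49 and 17. Summed, the 8 markers stood at 84.3 and 118 CPM in DMSO and at 77.2 and 92.3 CPM in DZNep. CD68 made up most of each sum, at 65.7 and 88.2 CPM in DMSO and 60.1 and 67.4 CPM in DZNep. The sum therefore says little of the other markers. The part of these markers and of the keratins in the results was not tested. In a bulk sample, fewer cells of a kind and less RNA per cell cannot be told apart.

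Promoter windows of 300 bases were available for 7 of the 8 genes, from RefSeq on GRCh38.p14, which is a later build than the hg19 named for the counts. The 4 shown belong to the genes with the largest DZNep effects among the ligands, the inhibitor and the receptors. Each runs 5′ to 3′ from 250 bases before the annotated start to 50 bases after it. Capitals mark matches on either strand to TGACG (a CRE half-site), TGANTCA (AP-1), GGGCGG (SP1), TATANA (TATA box) or GGAATG (TEAD). AREG lies at chr4:74444886-74445185 on the plus strand, EREG at chr4:74364895-74365194 on the plus strand, ERRFI1 at chr1:8026260-8026559 on the minus strand and EGFR at chr7:55018767-55019066 on the plus strand.
AREG: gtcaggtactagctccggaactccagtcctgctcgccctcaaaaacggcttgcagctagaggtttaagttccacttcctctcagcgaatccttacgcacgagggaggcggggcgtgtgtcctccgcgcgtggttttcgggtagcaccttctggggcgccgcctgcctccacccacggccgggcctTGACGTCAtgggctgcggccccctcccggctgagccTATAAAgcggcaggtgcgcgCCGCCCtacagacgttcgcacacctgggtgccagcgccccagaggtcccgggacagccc
EREG: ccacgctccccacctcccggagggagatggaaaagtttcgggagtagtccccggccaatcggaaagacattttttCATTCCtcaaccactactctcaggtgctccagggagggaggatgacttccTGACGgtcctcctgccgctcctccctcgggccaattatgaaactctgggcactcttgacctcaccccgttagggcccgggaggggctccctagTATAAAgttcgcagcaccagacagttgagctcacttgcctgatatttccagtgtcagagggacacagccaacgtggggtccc
ERRFI1: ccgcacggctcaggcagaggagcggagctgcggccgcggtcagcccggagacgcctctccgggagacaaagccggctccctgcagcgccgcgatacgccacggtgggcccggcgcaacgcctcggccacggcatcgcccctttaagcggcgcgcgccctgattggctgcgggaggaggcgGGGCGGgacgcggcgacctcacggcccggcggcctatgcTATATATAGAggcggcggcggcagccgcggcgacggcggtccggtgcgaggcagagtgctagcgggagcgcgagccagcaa
EGFR: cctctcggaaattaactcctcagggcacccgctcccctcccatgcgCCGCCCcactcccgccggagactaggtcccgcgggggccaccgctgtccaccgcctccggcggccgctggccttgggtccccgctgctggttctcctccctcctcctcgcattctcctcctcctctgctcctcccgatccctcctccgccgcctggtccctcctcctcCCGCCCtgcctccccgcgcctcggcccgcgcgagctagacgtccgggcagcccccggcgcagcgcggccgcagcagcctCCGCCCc

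The AREG, EREG and ERRFI1 windows each held a TATANA match just upstream of the start, beginning 29 bases before it in AREG, 32 bases before it in EREG and, as the first of 3 overlapping matches, 31 bases before it in ERRFI1. TATANA occurred in 19.0% of 35114 promoter windows of the same length. AREG carried a full palindromic CRE, made of 2 overlapping TGACG half-sites of which the first begins 65 bases before the start. EREG carried 1 half-site 125 bases before the start, and 24.6% of all windows held at least 1. TGFA, which was not called with DZNep, also carried 1 half-site, 154 bases before the start of 1 of its windows. ERRFI1 and HBEGF, which rose, carried no half-site, and neither did EGFR or ERBB2. The EGFR window shown had no TATANA match and 3 SP1 matches, and HBEGF had 5 SP1 matches and no TATANA match. The same TGFA window had 4 SP1 matches and no TATANA match, and AREG and ERRFI1 each had 1 SP1 match. EGFR has a further window, not shown, at chr7:55109589-55109888 on the plus strand. That window held 2 TATANA matches, 1 of them beginning 36 bases before its start. It also held 2 AP-1 matches and 1 TEAD match, and no SP1 match. ERBB2 held 1 AP-1 match. GGGCGG was found in 45.0% of all windows, TGANTCA in 7.71% and GGAATG in 14.0%. GC content was 57.7% in EREG, 66.3% in AREG, 74.7% in ERRFI1 and 75.3% in the EGFR window shown. It was 42.0% in the further EGFR window, against a median of 58.7% over all windows. A match is a description of letters in these windows, not of binding.

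The layout allows the drug and radiation to be compared separately and in combination. DZNep was accompanied by higher AREG, EREG, HBEGF and ERRFI1 and by lower EGFR in these cells. In edgeR's quasi-likelihood test, fitted to all 13378 genes above the filter with drug and dose as additive factors, 4 of the 8 genes rose and 1 fell at an adjusted p under 0.05. Among all tested genes, 10.8% rose and 12.3% fell. The median DZNep effect was 0.76 on the log2 scale over the 8 genes and -0.02 over all tested genes.

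Taken as pairs of libraries, 4 of the 8 were at least 2-fold higher with DZNep at 0 Gy, against 5.48% of all tested genes, and 0 were at least 2-fold lower, against 5.87%. At 4 Gy, 4 of the 8 were at least 2-fold higher, against 4.71%, and 1 was at least 2-fold lower, against 6.4%. The 4 were AREG, EREG, HBEGF and ERRFI1 at both doses, and the 1 was EGFR.

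AREG encodes amphiregulin, a ligand of EGFR. It stood at 8.62 CPM in DMSO 0 Gy, 10.7 CPM in DMSO 4 Gy, 33.0 CPM in DZNep 0 Gy and 34.6 CPM in DZNep 4 Gy. Both DZNep libraries were well above both DMSO libraries, and dose moved the level little in either. Its DZNep effect was 1.82 on the log2 scale (SE 0.18, adjusted p = 2.81e-05), with ratios of 3.82-fold at 0 Gy and 3.24-fold at 4 Gy. hg19 is known to carry a second, near-identical copy of AREG, and how reads matching both copies were counted is not given in the sources used here, so its absolute level is uncertain.

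EREG encodes epiregulin, a low-affinity ligand of EGFR and ERBB4. It was scarce, at 0.397 CPM in DMSO 0 Gy (55 counts), 1.16 CPM in DMSO 4 Gy, 2.21 CPM in DZNep 0 Gy and 2.38 CPM in DZNep 4 Gy. The DZNep libraries were again the higher pair, and DMSO 0 Gy was the lowest of all. Its DZNep effect was 1.73 (SE 0.40, adjusted p = 0.008), with ratios of 5.38-fold at 0 Gy, against 55 counts, and 2.04-fold at 4 Gy. The difference between these ratios was not tested. Without dose in the model its adjusted p was 0.114. EREG reached the filter of 1 CPM in 2 libraries only with DZNep libraries counted, the group where it was high. With no filter on low counts its adjusted p in the same test was 0.0186.

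HBEGF encodes heparin-binding EGF-like growth factor, whose precursor is also the diphtheria toxin receptor. It stood at 1.76 and 1.57 CPM in DMSO at 0 and 4 Gy, against 4.09 and 3.58 CPM in DZNep. The groups did not overlap, and the 2.32-fold ratio at 0 Gy was close to the 2.27-fold ratio at 4 Gy. The DZNep effect was 1.20 (SE 0.29, adjusted p = 0.0104), and its adjusted p without dose in the model was 0.0612.

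TGFA, the gene of transforming growth factor alpha, did not follow the other ligands. It stood at 0.636 CPM in DMSO 0 Gy, 1.89 CPM in DMSO 4 Gy, 1.08 CPM in DZNep 0 Gy and 1.74 CPM in DZNep 4 Gy. The DZNep and DMSO libraries overlapped, and both 4 Gy libraries were above both 0 Gy libraries. Its DZNep effect was 0.31 (SE 0.35, adjusted p = 0.559). The DZNep ratio was 0.75 at 0 Gy (95% counting interval 0.37 to 1.17) and -0.12 at 4 Gy (-0.40 to 0.17), on the log2 scale.

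Summed over the 4 ligand genes, the level was 11.4 CPM in DMSO 0 Gy, 15.3 CPM in DMSO 4 Gy, 40.4 CPM in DZNep 0 Gy and 42.3 CPM in DZNep 4 Gy. AREG made up most of each sum. The sum covers these 4 genes only and is not the total of EGFR ligand transcripts. It leaves out EPGN, which was above the sum in every library and fell with DZNep. EPGN stood at 159 and 151 CPM in DMSO and at 88.1 and 63.0 CPM in DZNep, at 0 and 4 Gy.

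**Figure D1:**
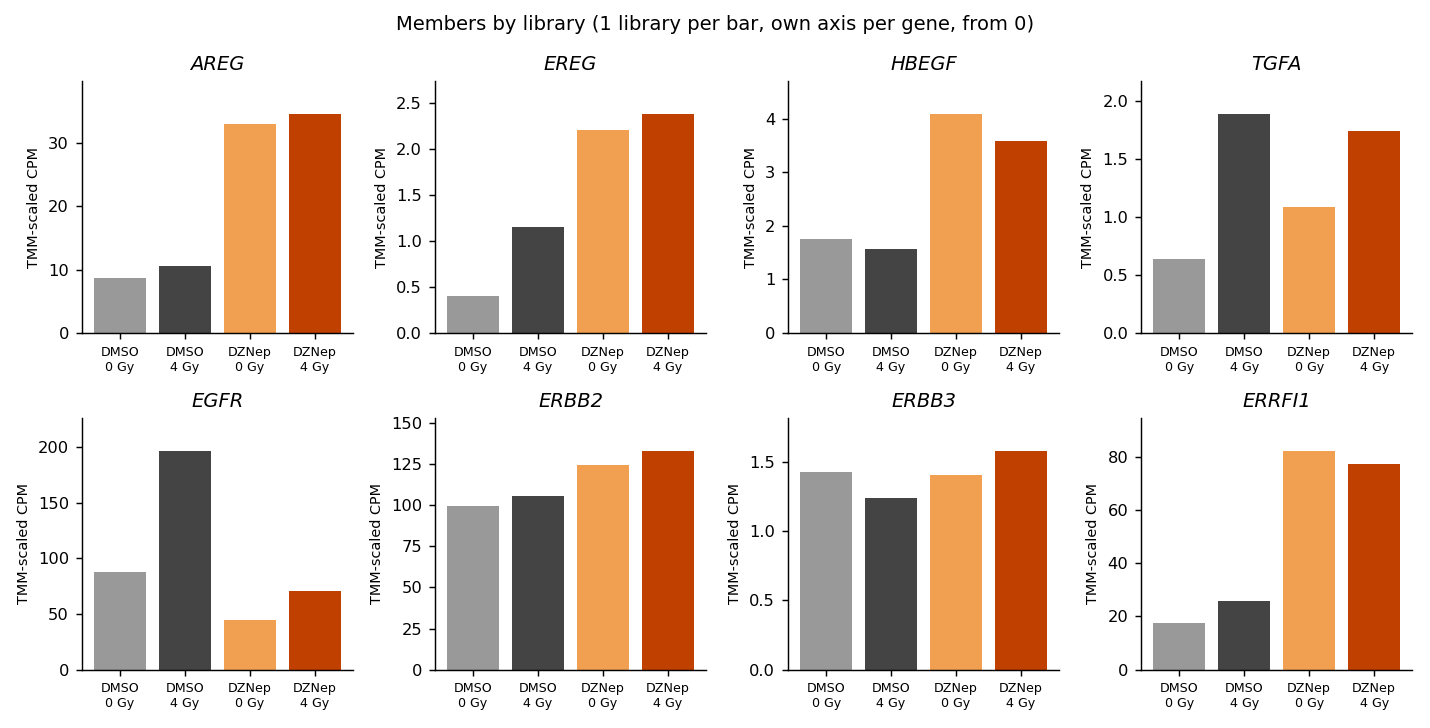
Level of each of the 8 genes in TMM-scaled CPM (y axis, starting at 0 and separate for each gene) in the 4 libraries (x axis), with 1 library per bar and therefore no error bar. AREG, EREG, HBEGF and ERRFI1 are highest in the DZNep libraries, EGFR is highest in DMSO 4 Gy (197 CPM), and ERBB2 and ERBB3 vary least.

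EGFR encodes the receptor that all 4 of these ligands bind. It stood at 87.6 CPM in DMSO 0 Gy, 197 CPM in DMSO 4 Gy, 44.7 CPM in DZNep 0 Gy and 70.9 CPM in DZNep 4 Gy. Both DZNep libraries were below both DMSO libraries, and within each pair the 4 Gy library was the higher. EGFR fell with DZNep by 1.22 on the log2 scale (SE 0.17, adjusted p = 0.000324), to 0.510 of the DMSO level at 0 Gy and 0.360 of it at 4 Gy. Without dose in the model the DZNep effect was -1.30 with an adjusted p of 0.0945.

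The antisense gene EGFR-AS1 overlaps EGFR and followed it, at 1.34, 3.14, 0.533 and 0.853 CPM in DMSO at 0 and 4 Gy and then DZNep at 0 and 4 Gy. Whether the counting used strand is not given in the sources used here, so reads of the pair cannot be told apart, although EGFR-AS1 was at most 3.14 CPM.

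ERBB2 encodes the ligandless partner receptor. It stood at 99.7 and 106 CPM in DMSO at 0 and 4 Gy, against 124 and 133 CPM in DZNep. Both DZNep libraries were the higher, but the DZNep effect of 0.32 (SE 0.15, adjusted p = 0.136) was not called. ERBB2 overlaps PGAP3 and MIEN1 on the opposite strand, so part of its count is uncertain.

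ERBB3, the receptor gene of the neuregulin branch, was scarce in every library, between 1.24 and 1.58 CPM. GENCODE places another gene over it on the same strand. Its groups overlapped, and its DZNep effect was 0.16 (SE 0.33, adjusted p = 0.755).

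ERRFI1 had the largest DZNep effect of the 8. It stood at 17.6 CPM in DMSO 0 Gy, 25.8 CPM in DMSO 4 Gy, 82.3 CPM in DZNep 0 Gy and 77.4 CPM in DZNep 4 Gy. Both DZNep libraries were well above both DMSO libraries. The log2 fold change was 1.91 (SE 0.19, adjusted p = 3e-05), with ratios of 4.68-fold at 0 Gy and 3.00-fold at 4 Gy. An antisense gene overlaps ERRFI1 in GENCODE, so without strand part of the ERRFI1 count is uncertain. Unlike that of EGFR-AS1, the level of this antisense gene was not examined.

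The order of levels was compared per kilobase of exon, using GENCODE 29 exon lengths on GRCh38. In DMSO 0 Gy the most abundant member per length was ERBB2 at 9.66 CPM per kb, followed by EGFR at 6.99, AREG at 5.23 and ERRFI1 at 4.19 CPM per kb. In DMSO 4 Gy EGFR led at 15.7 CPM per kb. In both DZNep libraries AREG led, at 20.0 and 21.0 CPM per kb at 0 and 4 Gy, then ERRFI1 at 19.7 and 18.5, ERBB2 at 12.0 and 12.9, and EGFR at 3.57 and 5.66 CPM per kb. The place of AREG in these orders rests on its level, which is uncertain because of the second hg19 copy. HBEGF, EREG, TGFA and ERBB3 were at or below 1.35 CPM per kb throughout. The ratio of EGFR to ERBB2 per length was 0.724 in DMSO 0 Gy, 1.53 in DMSO 4 Gy, 0.297 in DZNep 0 Gy and 0.439 in DZNep 4 Gy. With 1 library per group, no spread is known against which neighbours in these orders could be separated.

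Radiation was accompanied by a rise of EGFR, the only one of the 8 to pass the test, and 0 fell. Among all tested genes 2.17% rose and 0.897% fell, and under plain library size scaling rises made up 56.9% of all calls in place of 70.7%. The radiation effect on EGFR was 0.92 on the log2 scale (SE 0.17, adjusted p = 0.0139). EGFR was 2.25-fold higher at 4 Gy in DMSO and 1.59-fold higher in DZNep. With drug left out of the model its adjusted p was 0.998, since the DZNep difference then counts as spread between libraries. The median radiation effect was 0.21 over the 8 genes and 0.01 over all tested genes.

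TGFA had the largest radiation effect by size, 1.12 (SE 0.36, adjusted p = 0.101), which did not pass, although it passed under upper quartile scaling (adjusted p = 0.0309). EREG had an effect of 0.78 (SE 0.39, adjusted p = 0.281). AREG (0.19, SE 0.17), ERRFI1 (0.23, SE 0.18), ERBB2 (0.09, SE 0.15), ERBB3 (-0.02, SE 0.33) and HBEGF (-0.18, SE 0.29) had smaller effects, with adjusted p from 0.512 to 0.982.

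**Figure D2:**
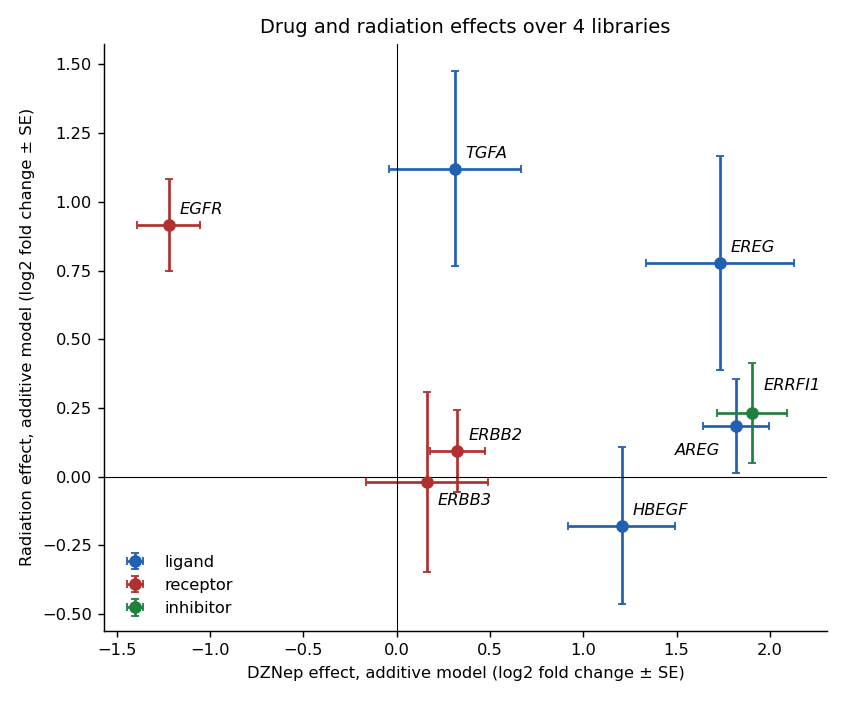
DZNep effect (x axis) and radiation effect (y axis) of the 8 genes as log2 fold changes from the additive model over 4 libraries, with bars of 1 SE and colours for ligands, receptors and the inhibitor. EGFR lies alone at the upper left (-1.22 and 0.92), AREG and ERRFI1 lie side by side at the right, and TGFA lies near 0 for the drug and at 1.12 for radiation.

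Library by library, radiation ratios were larger in DMSO than in DZNep for most of these genes. In DMSO, 3 of the 8 were at least 2-fold higher at 4 Gy, namely TGFA, EREG and EGFR, against 3.6% of all tested genes, and 0 were at least 2-fold lower, against 1.55%. In DZNep 0 of the 8 were at least 2-fold higher, against 1.82% of all tested genes, and 0 were at least 2-fold lower, against 1.1%. Such ratios compare libraries, not conditions, and their intervals cover counting error only.

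The log2 radiation ratio of EGFR was 1.17 in DMSO (interval 1.14 to 1.20) and 0.67 in DZNep (0.62 to 0.71). That of TGFA was 1.55 (1.20 to 1.95) and 0.68 (0.37 to 1.01). That of EREG was 1.50 (1.08 to 2.02) and 0.11 (-0.14 to 0.35). In all 3 the intervals in DMSO and DZNep did not overlap, and in EREG the ratio in DZNep was within counting error of 0. The share of all tested genes whose intervals do not overlap was not counted, so this is not a trait of these genes.

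ERRFI1 was the member with ratios in opposite directions and both counting intervals off 0, at 0.56 in DMSO (0.48 to 0.63) and -0.09 in DZNep (-0.13 to -0.05). The ratio in DZNep was small, at 0.940-fold, and these intervals hold no spread between cultures. ERBB3 also changed sign, at -0.21 (-0.53 to 0.11) and 0.17 (-0.13 to 0.48), but both of its intervals include 0. Signs were opposite for these 2 of the 8 genes, against 34.3% of all tested genes. The share of all tested genes with opposite signs and both intervals off 0 was not counted. AREG was at 0.31 (0.19 to 0.42) in DMSO and 0.07 (0.01 to 0.13) in DZNep, with no overlap of intervals. HBEGF was at -0.16 and -0.19 and ERBB2 at 0.08 and 0.10, both with overlapping intervals.

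The interaction, which is the radiation ratio in DZNep minus that in DMSO, was below 0 for 6 of the 8 genes, against 49.6% of all tested genes. It was -1.40 for EREG, -0.87 for TGFA, -0.64 for ERRFI1 and -0.50 for EGFR, and 0.5 or more in absolute size for these 4 of 8, against 25.2% of all tested genes. For ERBB2 it was 0.02 and took a negative sign under plain library size scaling and under RLE scaling. The interaction has no error estimate in this design and was not tested.

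**Figure D3:**
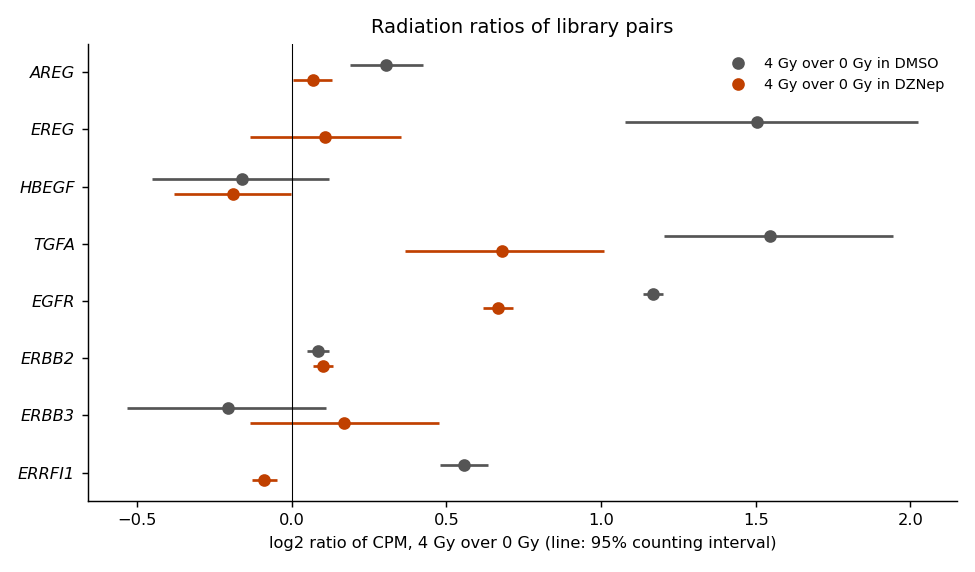
Log2 ratio of CPM at 4 Gy over 0 Gy (x axis) for each of the 8 genes (y axis) in DMSO (grey) and in DZNep (orange), with 95% counting intervals as lines. The grey points of AREG, EREG, TGFA, EGFR and ERRFI1 lie to the right of the orange ones with no overlap of intervals. ERBB2 shows nearly the same small ratio in both. The intervals cover counting error only, and the share of all tested genes without overlap was not counted.

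The other EGF-family genes gave calls in both directions. Of 7 further ligand genes and the receptor gene ERBB4, 5 were above the filter, of which 2 rose and 1 fell with DZNep, against 10.8% and 12.3% of all tested genes. NRG1, the neuregulin 1 gene, whose products bind ERBB3 and ERBB4, stood at 145 and 312 CPM in DMSO at 0 and 4 Gy, against 235 and 474 CPM in DZNep. It rose with the drug (0.65, SE 0.14, adjusted p = 0.00576) and with radiation (1.06, SE 0.14, adjusted p = 0.00228), unlike any of the 8 genes above, of which EGFR was called for both factors but in opposite directions. NRG2 rose with DZNep (0.80, SE 0.18). NRG4 (-0.28, SE 0.27) and EGF (-0.34, SE 0.21) did not pass. BTC had counts in DMSO 4 Gy only (0.187 CPM), and the 0 counts in the other libraries allow up to 0.0220 to 0.0258 CPM, counting 3 as the limit. NRG3 stayed at or below 0.142 CPM and ERBB4 at or below 0.592 CPM.

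EPGN, the epigen gene, fell with DZNep (-1.06, SE 0.16, adjusted p = 0.000654), from 159 and 151 CPM in DMSO to 88.1 and 63.0 CPM at 0 and 4 Gy. EPGN, EREG and AREG are consecutive protein-coding genes on the same strand of chromosome 4 in GENCODE 29, with BTC next in line. These neighbouring ligand genes therefore held 2 rises and 1 fall with the drug. As counted, EPGN was per length the most abundant EGFR ligand transcript in every library. It was at 87.8, 83.5, 48.6 and 34.8 CPM per kb in DMSO at 0 and 4 Gy and then DZNep at 0 and 4 Gy. AREG was counted at 20.0 and 21.0 CPM per kb in DZNep, but its level is uncertain, so its place below EPGN there is uncertain too.

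Genes that release or process the ligands moved in both directions. Of 11 tested, 2 rose and 2 fell with DZNep, against 10.8% and 12.3% of all tested genes, with a median effect of 0.11. CD9, a tetraspanin that associates with the HBEGF precursor, rose (1.44, SE 0.16), as did FURIN, a proprotein convertase (1.12, SE 0.17). The protease genes ADAM8 (-1.60, SE 0.32) and ADAM12 (-1.11, SE 0.26) fell. ADAM17, the main sheddase of AREG, EREG, HBEGF and TGFA, stood at 14.4, 15.9, 21.6 and 16.3 CPM in DMSO at 0 and 4 Gy and then DZNep at 0 and 4 Gy and did not pass (0.32, SE 0.19). RHBDF1, an iRhom needed for ADAM17 traffic (-0.56, SE 0.20), and TIMP3, an inhibitor of ADAM17 (0.36, SE 0.29), did not pass either. With radiation 0 of 11 passed, against 2.17% higher and 0.897% lower of all tested genes, with ADAM8 (1.23, SE 0.32), TIMP3 (0.75, SE 0.29) and RHBDF1 (0.52, SE 0.20) having the largest effects.

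The next list holds genes linked to attenuation or sorting of the receptors, without regard to whether each promotes or opposes it. Of 19 tested, 4 rose with DZNep and 0 fell, against 10.8% and 12.3% of all tested genes, with a median effect of 0.06. They were CBLB, a ubiquitin ligase gene (0.89, SE 0.21), UBASH3B, which encodes a phosphatase that binds CBL proteins (0.87, SE 0.17), the receptor phosphatase gene PTPRJ (0.80, SE 0.16) and SOCS5 (0.74, SE 0.20). The sorting genes STAM (-0.45, SE 0.16) and USP8 (-0.44, SE 0.17) did not pass. With radiation 0 of 19 passed, against 2.17% higher and 0.897% lower of all tested genes, CBLB being at 0.70 (SE 0.20), RNF41 at 0.32 (SE 0.15) and SOCS5 at -0.28 (SE 0.20).

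The adaptors, GTPases and kinases that carry the signal had 1 rise and 2 falls with DZNep among 27 tested genes, against 10.8% and 12.3% of all tested genes, and a median effect of -0.02. GAB1, a docking protein gene, rose (0.81, SE 0.19), while MAP2K2, which encodes the ERK kinase MEK2 (-0.96, SE 0.16), and AKT1 (-0.51, SE 0.14) fell. SOS2 (-0.62, SE 0.23), GAB2 (0.51, SE 0.24) and HRAS (0.43, SE 0.16) did not pass. With radiation 0 of 27 passed, against 2.17% higher and 0.897% lower of all tested genes, the largest effects being those of GAB2 (0.70, SE 0.24), GAB1 (0.66, SE 0.19) and STAT3 (0.55, SE 0.16).

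Of 18 genes known to respond to ERK signalling, 10 rose and 1 fell with DZNep, against 10.8% and 12.3% of all tested genes. The median effect was 0.59. The rises include IER3 (1.69, SE 0.17), the phosphatase genes DUSP5 (1.53, SE 0.18) and DUSP4 (1.02, SE 0.16), and PHLDA1 (1.21, SE 0.15). The fall was that of EGR1, an immediate early transcription factor gene (-1.49, SE 0.25), and SPRY1 did not pass (0.83, SE 0.32). With radiation 1 of 18 rose and 0 fell, against 2.17% higher and 0.897% lower of all tested genes. It was EPHA2, a receptor kinase gene (0.94, SE 0.16, adjusted p = 0.00928), while SPRED3 (0.91, SE 0.36) and SPRY1 (-0.79, SE 0.32) did not pass. The list was chosen with results of these libraries known, so it is not independent evidence.

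**Figure D4:**
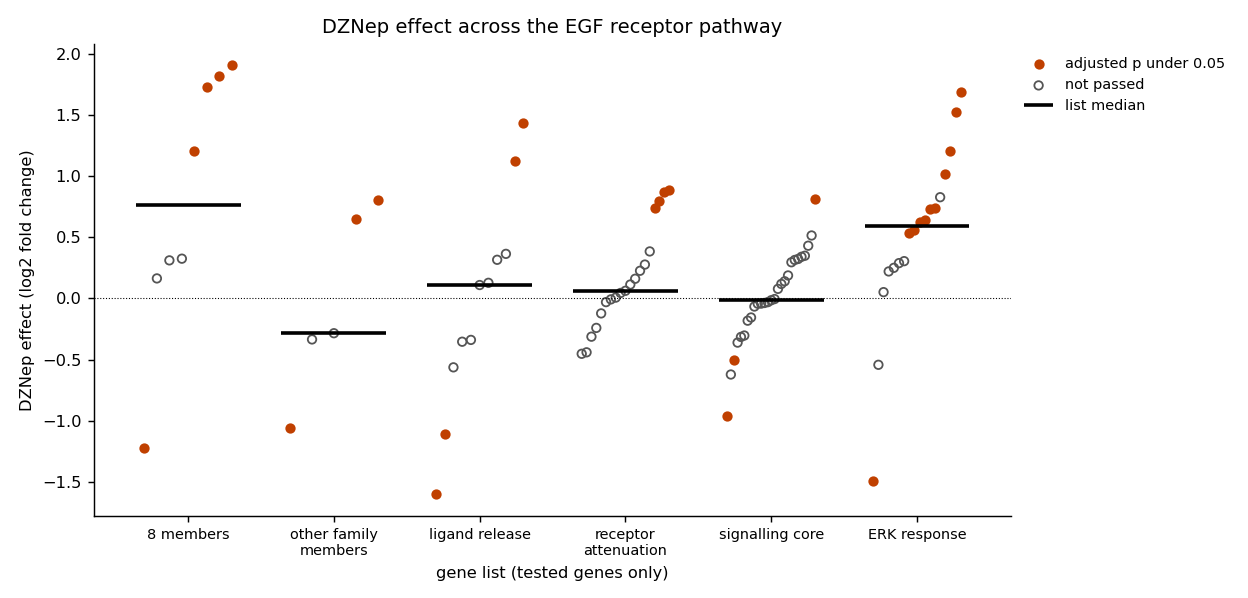
DZNep effect (log2 fold change, y axis) of each tested gene in 6 lists of the EGF receptor pathway (x axis), with filled points for an adjusted p under 0.05, open points for genes that did not pass, and a line at the list median. The medians are 0.76 for the 8 genes and 0.59 for the ERK response list, and between -0.28 and 0.11 for the other 4 lists.

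The genes closest in pattern were found by the Euclidean distance between log2 CPM values over the 4 libraries, each gene centred on its own mean, among genes at a mean of 10 CPM or more. Distances are in log2 units and describe 4 libraries only. AREG and ERRFI1 lay 0.227 apart, the smallest distance between any 2 of the 8 genes. ERBB2 and ERBB3 lay 0.266 apart, but each varied little, its highest library being 1.34-fold and 1.28-fold above its lowest. A small distance between 2 such genes reflects lack of change and not a shared pattern. EGFR and ERRFI1 lay farthest apart, at 3.20.

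Nearest to AREG were CDC42EP2 (0.107), MYADM (0.130) and ABLIM3 (0.140). CDC42EP2 was also among the nearest to ERRFI1 (0.183), with TNFRSF11B (0.173) and CITED4 (0.218). EREG had no close match, its nearest genes being RBM24 (0.280), PDK4 (0.390) and NMNAT2 (0.403). Nearest to HBEGF were SLC12A8 (0.0640), TFPI2 (0.122) and AKAP2 (0.141). TGFA was nearest to MAST4 (0.180), TRIM40 (0.233) and TRIM10 (0.238), and EGFR to RHOH (0.0716), GAA (0.119) and OLFML2A (0.130). RHOH, for example, stood at 15.0, 32.9, 7.40 and 12.5 CPM in DMSO at 0 and 4 Gy and then DZNep at 0 and 4 Gy, the same order as EGFR.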

How the data were processed

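Polyadenylated RNA was sequenced in 4 libraries made with the Lexogen SENSE mRNA kit from Trizol extracts, as the labels' protocols state. The deposited values are the authors' raw counts for each gene symbol, without normalization. TopHat, edgeR and hg19 are named in the submitters' processing notes; versions, counter, annotation and use of strand are not given there. Even values made up 55.9% to 58.1% of counts from 1 to 59, so mates may have been counted separately and counting intervals may be too narrow.

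Counts were scaled by TMM (factors 0.979 to 1.01) and tested with edgeR 4.0.16 (R 4.3.3) over 13378 genes, with drug and dose as additive factors and with Benjamini-Hochberg adjustment at 0.05. The model has 1 residual degree of freedom, so any departure from additivity counts as spread. Each gene's spread was also pooled with that of other genes, with a median of 11.5 prior degrees of freedom. SE is the log2 fold change over the square root of F. Ratios of 2 libraries used a prior count of 2, with exact conditional binomial 95% intervals computed without it. On simulated counts for the DZNep effect over 13378 genes, the test recovered 76% of 100 genes changed 2-fold and 100% of 100 changed 4-fold. Of 185 calls, 9 were false. These rates describe the simulated counts only. They are not split by level, so they give no rate for scarce genes such as EREG, HBEGF, TGFA and ERBB3. In the real libraries the interaction had a standard deviation of 0.53 over all tested genes. The rates under such departures from additivity are not known.

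The 8 genes and all lists were chosen with earlier results of these data known, and the promoter motifs after the sequences were seen. Named list genes were up to 6 with the largest DZNep effect and up to 3 with the largest radiation effect per list. Named genes of like pattern were the nearest 3 of each member that varied at least 2-fold. ADAM17 and the genes at low counts that are named beside these rules were chosen after their values were seen. Alternatives were DESeq2 1.42.0, 3 other scalings, 2 other filters, a model without the other factor, and a prior count of 0.5.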

Additional observations from a re-analysis of the deposited data

Results flagged for a closer look

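The radiation ratio of ERRFI1 pointed in opposite directions in the 2 drug arms. It was 0.56 on the log2 scale in DMSO (17.6 to 25.8 CPM) and -0.09 in DZNep (82.3 to 77.4 CPM), a difference of -0.64, and neither counting interval includes 0. The ratio in DZNep was small, at 0.940-fold, and counting intervals may be too narrow. Opposite signs occurred in 2 of the 8 genes, against 34.3% of all tested genes. How many of all tested genes also have both intervals off 0 was not counted. Each arm is 1 library per dose, and the difference was not tested.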

How the results depend on the processing

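AREG and ERRFI1 were called as higher with DZNep under all 7 alternatives, with log2 effects of 1.80 to 1.83 and 1.88 to 1.92. EREG, HBEGF and EGFR were called under each alternative that kept them in the test except the model without dose, where their effects were 1.57, 1.21 and -1.30. The number of the 8 genes called higher was then 2 and lower 0, and over all genes 355 were higher and 366 lower. It was also 2 under the 10 CPM filter, which removes EREG, HBEGF, TGFA and ERBB3.

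The radiation call of EGFR held except in the model without drug (1.02), where 0 of the 8 genes and 0 of all genes were called in either direction by edgeR, with 524 at an unadjusted p under 0.05. Upper quartile scaling called 2 of the 8 as higher, adding TGFA (1.11), and over all genes 752 higher and 577 lower. Over all genes, radiation calls were 134 higher and 65 lower without a filter, 590 and 441 with the 10 CPM filter, and 447 and 214 with DESeq2; plain library size scaling gave 266 lower. The cause of these changes in count was not tested. Plain library size scaling moved the radiation ratio in DZNep past its counting interval for ERBB2 (0.06) and ERRFI1 (-0.13). No result changed direction except the interaction of ERBB2, which is near 0. No paired analysis was possible because the labels give no replicate numbers and each group is 1 library. With 55 to 286 counts, EREG is limited most by depth, and TGFA and ERBB3 have 88 to 212.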
